A study of Sus scrofa with 4 samples.

Results

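The BCL2 family cell death regulators were followed in porcine blastocysts that had developed with or without ethanol. Members were array probes whose platform gene symbol is BAX, BAK1, BCL2, BCL2L1, BCL2L2, MCL1, BCL2L11, BID, BAD or BIK. Of these 10 genes, 8 had a probe, 13 probes in all among 43794 on the array. All 13 stayed after the filter on dim probes, which left 25892 probes. BCL2L2 and BIK had no probe under these symbols and were not analysed here. BID and MCL1 had 3 probes each, BCL2L11 had 2, and BAX, BAK1, BCL2, BCL2L1 and BAD had 1 each.

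The BCL2 family controls whether mitochondria release the proteins that start the intrinsic route of programmed cell death. The pore formers BAX and BAK1 permeabilise the outer mitochondrial membrane. The anti-apoptotic members, among them BCL2, BCL2L1 (BCL-XL) and MCL1, bind and restrain them. The BH3-only members, such as BCL2L11 (BIM), BID and BAD, carry stress signals to both of these groups, either by occupying the anti-apoptotic proteins or by activating the pore formers. In preimplantation embryos a certain amount of cell death is normal, and transcripts of this family are often measured as readouts of embryo quality.

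The ethanol group was made of pools of 10 expanded blastocysts grown from zygotes for 7 days in PZM3 medium containing 0.2% ethanol, in sealed glass vials. The control group was made of pools of 10 expanded blastocysts with no compound added, and the labels do not say whether their vials were the same. Strain, sex and oocyte source are not stated in the labels. There were 4 pools of each kind. A pool of each kind was amplified, labelled and hybridised together on each of 4 arrays read in 2 colours. Ethanol pools took Cy5 on arrays 1 and 3, and Cy3 on arrays 2 and 4. Only embryos that reached the expanded blastocyst stage were sampled, so embryos lost earlier do not appear in any value.

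Detection was uneven between the dyes, with 70.3% to 73.7% of probes over the background limit in Cy3 but 46.7% to 56.8% in Cy5. Ethanol over control ratios correlated across the kept probes at 0.40 and 0.43 between arrays of the same dye orientation, and at -0.39 to -0.29 between arrays of opposite orientation. Single ratios thus followed the dye in part, and each fitted value below comes from a model with a dye coefficient for every probe. Of 10 trophectoderm markers 9 were above background in all 8 channels, as were POU5F1 and DPPA5 of the inner cell mass and GATA6 of the hypoblast, while NANOG and SOX17 had no probe. SOX2, KLF4 and SALL4 of the inner cell mass had a probe that did not pass the filter. Of the 4 sperm and blood cell markers with a probe, TNP1, ODF1 and CD14 were above background in no channel, and the leukocyte gene PTPRC was in 4 ethanol and 3 control channels. Among cumulus and granulosa markers, 5 of the 11 with a probe were above background in all 8 channels, and none of the 10 kept was under an unadjusted p of 0.05 by limma. Their summed normalized intensity was 2084 to 2283 in ethanol pools and 2076 to 2343 in control pools. The part of such cells in the results was not tested.

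No gene of the family passed the adjustment for multiple testing, and neither did any other probe (0 of 25892, or 0%, by limma at an adjusted p of 0.05; 1887 probes, or 7.29%, were under an unadjusted p of 0.05). On the brightest probe of each gene, 6 of the 8 measured members lay below 0 and 2 above, while 50.3% of all genes lay below 0. Unadjusted p-values under 0.05 were found for BAX, BCL2L1 and BCL2L11, all lower in ethanol blastocysts, 1 from each functional class. That is 3 of 8 members, against 305 of 7284 genes (4.19%) that were lower at this p and 354 (4.86%) that were higher. In either direction the share of all genes was 9.05%. BAX, BCL2, BCL2L1 and BCL2L11 were lower in the ethanol pool on all 4 arrays, a pattern shown by 4.82% of all genes. No member was higher on all 4 arrays on its brightest probe, as 5.48% of all genes were. The median log2 ratio was -0.16 over the 8 members and -0.00 over all 7284 genes. The members were chosen with earlier results of these data known, so these shares describe the family and are no test of it.

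**Figure D1:**
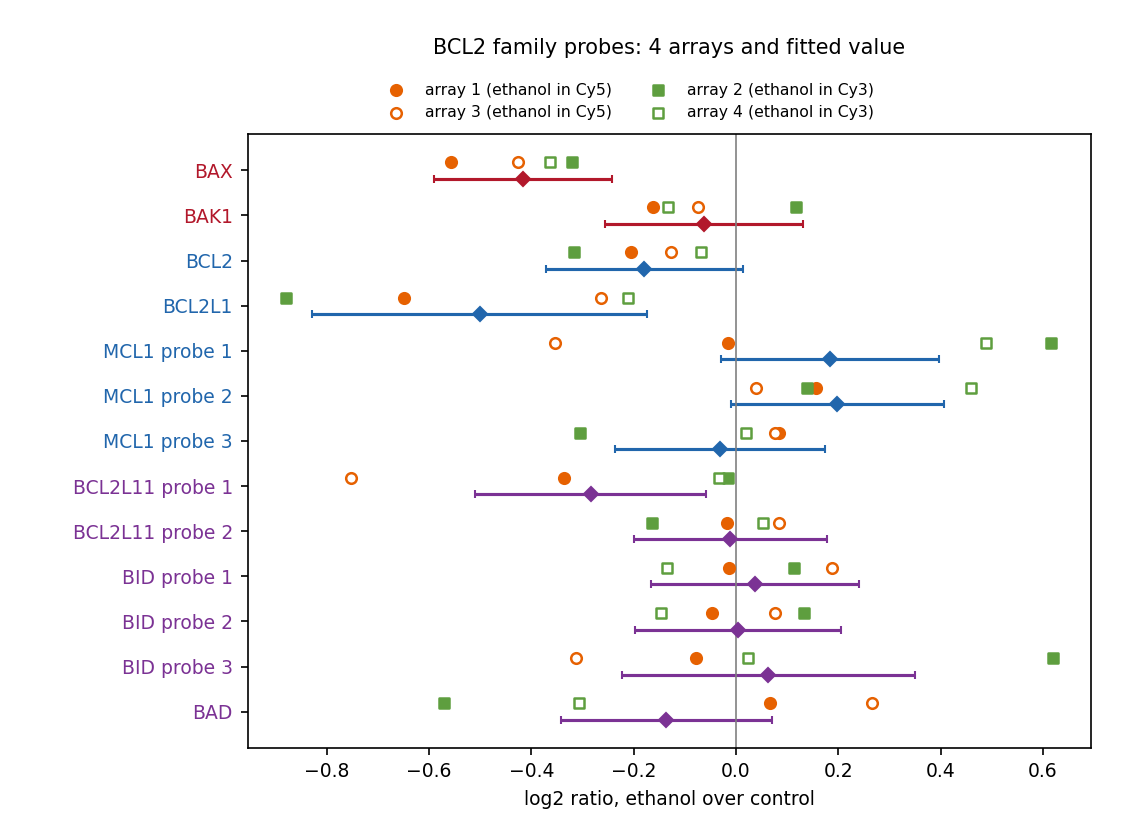
Log2 ratio of ethanol over control for the 13 probes of the BCL2 family. Circles are arrays 1 and 3 (ethanol in Cy5), squares arrays 2 and 4 (ethanol in Cy3), and diamonds with bars the fitted value with its 95% interval, with names coloured red for pore formers, blue for anti-apoptotic and purple for BH3-only members. All 4 arrays lie left of 0 for BAX, BCL2, BCL2L1 and the brightest BCL2L11 probe, and the intervals of BAX, BCL2L1 and that BCL2L11 probe end below 0.

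Among the pore formers, BAX was the member with the most even difference between pools. Its normalized log2 intensity was 7.96, 7.91, 8.17 and 8.27 in the ethanol pools of arrays 1 to 4 and 8.52, 8.23, 8.60 and 8.64 in the control pools beside them. The ethanol pool was thus the lower one on every array, with log2 ratios of -0.56, -0.32, -0.43 and -0.36. Within each dye the ethanol pools also lay wholly below the control pools, and 1.99% of all genes were separated in this way with the ethanol pools lower. BAX was the only member with ethanol pools wholly lower in both dyes. The fitted log2 ratio of BAX was -0.42 (SE 0.07), a level 0.749 times that of controls (95% interval 0.664 to 0.845), with an unadjusted p of 0.00121 and an adjusted p of 0.510 by limma. Only 0.174% of kept probes had a smaller p. The dye coefficient of BAX was -0.07, and the mean ratio was below 0 in both orientations, at -0.49 where the ethanol pool took Cy5 and -0.34 where it took Cy3. With 1 array left out it stayed between -0.45 and -0.38.

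BAK1, the second pore former, was close to the detection limit. Its probe was above background in 3 of 4 ethanol channels and 3 of 4 control channels, with signals 0.891 to 1.34 times the limit set by the negative controls. Its log2 ratios were -0.16, 0.12, -0.07 and -0.13 on arrays 1 to 4, so the ethanol pool was lower on 3 arrays and higher on 1. The fitted log2 ratio was -0.06 (SE 0.08), or 0.957 times the control level with a 95% interval of 0.837 to 1.09. Without the offset of 50 in background correction it was -0.13 (SE 0.13), and it was -0.13 without array 2 and -0.00 without array 4. The difference between BAX and BAK1 was not tested.

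Of the anti-apoptotic members, BCL2L1 had the lowest fitted value of the family. The ethanol pools of arrays 1 to 4 stood at 8.89, 8.35, 9.19 and 8.76 in normalized log2 intensity and the control pools at 9.54, 9.23, 9.45 and 8.97. All 4 ethanol pools were below their partners, but the gap was uneven, with log2 ratios of -0.65 and -0.88 on arrays 1 and 2 and -0.26 and -0.21 on arrays 3 and 4. The uneven pairs each hold both dye orientations, and the dye coefficient was 0.04. Within Cy3 the ethanol pools lay below the control pools. Within Cy5 the ethanol pools, at 8.89 and 9.19, overlapped the control pools, at 9.23 and 8.97. The fitted log2 ratio was -0.50 (SE 0.13), a level 0.707 times that of controls (95% interval 0.563 to 0.887), with an unadjusted p of 0.00986 and an adjusted p of 0.539 by limma. Without array 2 it was -0.33 and without array 4 it was -0.67, and the unadjusted p was 0.0470 or less with any 1 array left out. This gene gives rise to a long protective and a short death-promoting splice form in mammals. The labels do not say where its probe lies in the transcript, and the value is not assigned to a form.

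BCL2, the founding member of the family, was also lower in each ethanol pool, by less. Its log2 ratios were -0.21, -0.32, -0.13 and -0.07 on arrays 1 to 4, at signals of 1.26 to 2.18 times the background limit. The fitted log2 ratio was -0.18 (SE 0.08), or 0.883 times the control level, and its 95% interval of 0.773 to 1.01 just included no difference (unadjusted p = 0.0622 by limma). Without array 2 it was -0.12. In the same channels BCL2 varied little between control pools, from 7.46 to 7.53 in normalized log2 intensity, while ethanol pools ran from 7.19 to 7.47.

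MCL1, a short-lived protector needed for survival of the mouse embryo around implantation, leaned the other way on 2 of its 3 probes. On the brightest probe the log2 ratios were -0.02 and -0.35 with ethanol RNA in Cy5 (arrays 1 and 3) and 0.61 and 0.49 with ethanol RNA in Cy3 (arrays 2 and 4). The sign of the single ratio thus followed the dye, and the dye coefficient of -0.37 was larger in size than the fitted log2 ratio of 0.18 (SE 0.09; 1.14 times the control level, 95% interval 0.980 to 1.32). Compared within a dye, the ethanol pools lay wholly above the control pools: 10.76 and 10.49 against 10.44 and 10.46 in Cy5, and 11.06 and 10.95 against 10.77 and 10.84 in Cy3. Higher ethanol pools without overlap in both dyes were found for 1.63% of all genes. The second probe was higher in the ethanol pool on all 4 arrays, at 0.16, 0.14, 0.04 and 0.46, and had a fitted log2 ratio of 0.20 (SE 0.08). The dimmest MCL1 probe was at -0.03 (SE 0.08). Over the 8 pools the second probe correlated at 0.42 with the brightest and at -0.62 with the dimmest, so the probes did not track each other closely. None of the 3 was under an unadjusted p of 0.05 by limma (0.0787, 0.0591 and 0.721). Without array 3 the brightest probe stood at 0.27 with an unadjusted p of 0.0380, and without array 1 it stood at 0.10.

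**Figure D2:**
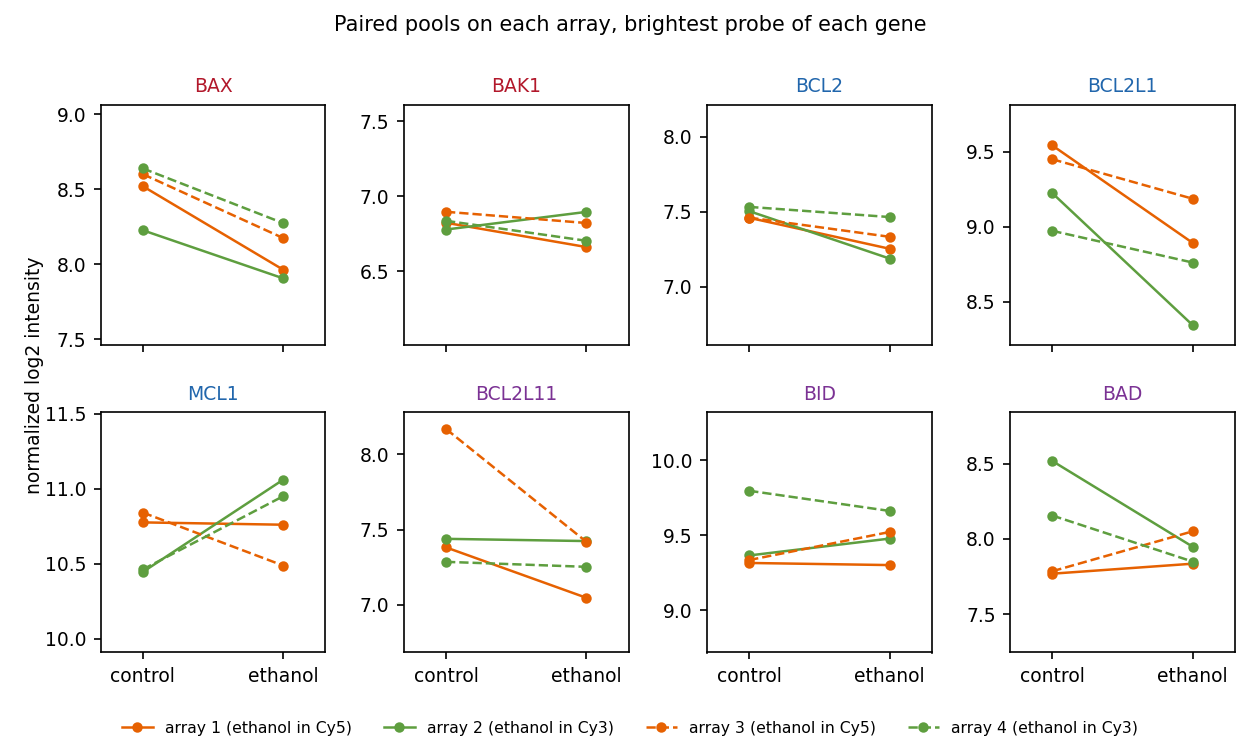
Normalized log2 intensity of the control and ethanol pool on each array, for the brightest probe of the 8 measured members, with lines joining the pools that shared an array. Every panel spans 1.6 log2 units. Orange lines have ethanol RNA in Cy5 and green lines in Cy3. The 4 lines all fall by similar amounts for BAX, fall unevenly for BCL2L1, and cross for MCL1 and BAD, where colour sets the direction.

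Genes listed as anti-apoptotic were compared with BAX by taking the log2 ratio of BAX from theirs on the same array. The BCL2L1 value is not assigned to its protective form. For BCL2L1 minus BAX the values were -0.09, -0.56, 0.16 and 0.15 on arrays 1 to 4. They lay on both sides of 0, with a mean of -0.08 ± 0.34 (SD, n = 4; exact sign-flip permutation test, 2-sided, p = 0.875). The mean shift of their ratio was smaller than its spread between arrays. This comparison cannot show whether both transcripts were lower, and neither passed the adjustment for multiple testing on its own. Without array 2 the mean changed sign, to 0.07. BCL2 minus BAX was above 0 on all 4 arrays, at 0.35, 0.00, 0.30 and 0.30 (mean 0.24 ± 0.16, SD, n = 4). MCL1 minus BAX was above 0 on all 4 arrays as well, at 0.54, 0.94, 0.07 and 0.85 (mean 0.60 ± 0.39, SD, n = 4). For both the exact p was 0.125, the smallest that 4 arrays allow, and 0.188 after adjustment over the 3 pairs, so neither could pass. The BCL2 and MCL1 pairs were added after the data had been seen, and each difference takes in the dye bias of both probes.

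In the BH3-only class, BCL2L11 had the lowest fitted value, but on 1 of its 2 probes. The brightest probe had log2 ratios of -0.34, -0.01, -0.75 and -0.03 on arrays 1 to 4. All were below 0, and those with ethanol RNA in Cy3 were near 0. The mean ratio was -0.54 with ethanol RNA in Cy5 and -0.02 with it in Cy3. The dye coefficient of -0.26 was close in size to the fitted log2 ratio. The largest gap came from the control pool of array 3, at 8.17 in normalized log2 intensity, while the other control pools lay between 7.28 and 7.44 and the ethanol pools between 7.04 and 7.42. The fitted log2 ratio was -0.28 (SE 0.09), or 0.821 times the control level (95% interval 0.702 to 0.960), with an unadjusted p of 0.0220 and an adjusted p of 0.610 by limma. Without array 3 it was -0.18 (unadjusted p = 0.112), and it was also above 0.05 without array 2 (unadjusted p = 0.0626) or array 4 (unadjusted p = 0.0689). The second BCL2L11 probe had a fitted log2 ratio of -0.01 (SE 0.08), with signals only 0.944 to 1.25 times the background limit. With both probes averaged BCL2L11 had -0.15 (unadjusted p = 0.0832 by limma).

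BID, which caspase-8 cleaves to link death receptors to mitochondria, showed no detectable difference on any of its 3 probes. Their fitted log2 ratios were 0.04, 0.00 and 0.06, with SEs of 0.08, 0.08 and 0.12. For the brightest probe the level was 1.03 times that of controls, and its 95% interval of 0.892 to 1.18 excludes a difference as large as that fitted for BAX. The 2 brightest BID probes gave nearly the same profile over the 8 pools, with a correlation of 0.93, and 1 of them carries an accession that the RefSeq table also lists as BID. The dimmest had 0.62 on array 2 and between -0.31 and 0.02 elsewhere.

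BAD, a BH3-only protein held inactive by growth factor signalling, followed the dye. Its log2 ratios were 0.07 and 0.27 with ethanol RNA in Cy5 (arrays 1 and 3) and -0.57 and -0.31 with ethanol RNA in Cy3 (arrays 2 and 4). The dye coefficient was 0.30, the largest positive one in the family, and the fitted log2 ratio was -0.14 (SE 0.08; 0.910 times the control level, 95% interval 0.789 to 1.05; unadjusted p = 0.155 by limma). It was -0.09 without array 1 and -0.07 without array 2.

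By class, the median fitted log2 ratio was -0.24 for the 2 pore formers, -0.18 for the 3 measured anti-apoptotic members and -0.14 for the 3 measured BH3-only members. Each class held members of differing size. The pore formers spanned -0.42 to -0.06, the anti-apoptotic members -0.50 to 0.18 and the BH3-only members -0.28 to 0.04. The lower values were therefore not limited to a class. BAX and BCL2L1, listed in different classes, stood lowest, and the BCL2L1 value is not assigned to a splice form.

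**Figure D3:**
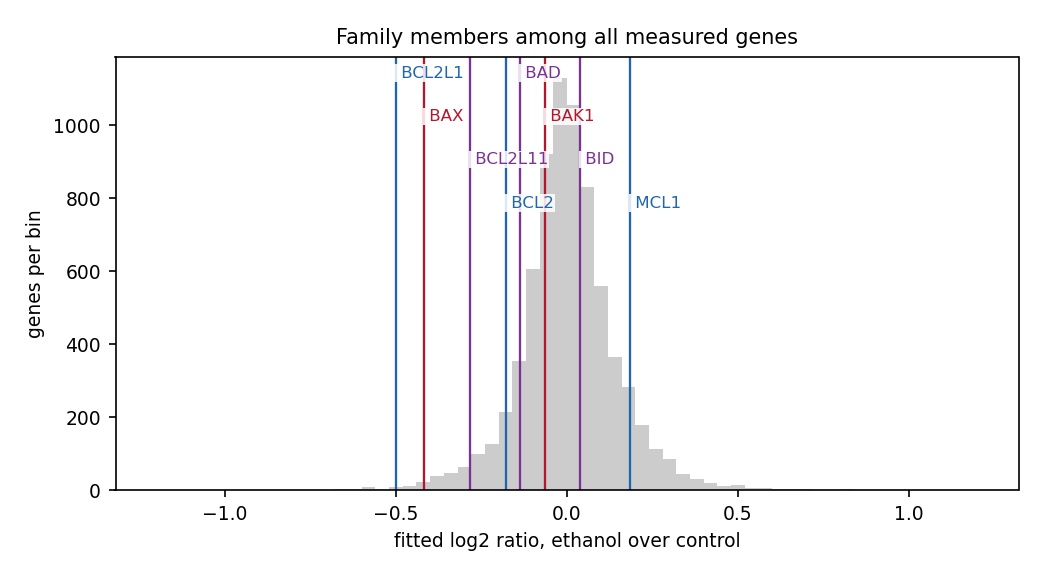
Histogram of fitted log2 ratios of ethanol over control for 7284 genes on their brightest probe, with vertical lines at the 8 measured family members (red pore formers, blue anti-apoptotic, purple BH3-only). BCL2L1 at -0.50 and BAX at -0.42 lie in the thin lower tail, BID and BAK1 near the centre, and MCL1 at 0.18 on the upper side.

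The genes whose levels ran most like those of a member were found over the 8 pools after the mean of each dye had been subtracted. These correlations rest on 8 pools that share 4 arrays and are the highest of 7283, so they only describe the profile. Ethanol and control pools entered together, so a shared direction is part of how these genes were picked. For BAX they were RPS28, CD5, MLF2, MGAT4A and YIF1B, with Pearson correlations of 0.94 to 0.95. RPS28, a protein of the small ribosomal subunit, had a fitted log2 ratio of -0.43, close to that of BAX. The others ran from -0.28 for YIF1B to -0.12 for CD5. For BCL2L1 they were ALKBH7, AP2S1, THAP7, SPG20 and YKT6 (0.94 to 0.95), of which the mitochondrial dioxygenase gene ALKBH7 had -0.52. The others ran from -0.47 for SPG20 to -0.12 for AP2S1. For BCL2L11 they were PPP6R1, S100A2, KDM4B, SMARCA4 and SLC35F5 (0.95 to 0.99), with fitted log2 ratios between -0.29 and -0.13.

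Other genes of the apoptotic machinery lay on both sides of 0. Of 102 such genes on 6 lists, 64 were measured, and 31 lay above 0 and 33 below, with a median log2 ratio of -0.00. BCL2A1, CASP2 and FAS were kept through 1 group alone, and the other 61 genes, like the 8 members, were above background on 3 or more arrays in both groups. Of these 61, 6 were under an unadjusted p of 0.05 by limma (9.84%), a share near the 9.68% of all genes so kept. They were BCLAF1, OPA1, VDAC1, CASP6, DYNLL1 and MDM2, each with a fitted value above 0. Across all 7284 genes the share under this p was 9.05%, with 4.86% higher and 4.19% lower. None of the 64 passed the adjusted threshold.

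Among 10 measured relatives of the family outside the 8 members, 4 lay above 0 and 6 below. BCL2A1, an anti-apoptotic relative, had a log2 ratio of 0.30 (SE 0.12), but its probe was above background in 3 ethanol and 1 control channels and passed the filter through the ethanol pools alone, so its direction is no support for a difference. It stood at 0.15 without array 2 and 0.46 without array 4. Its unadjusted p by limma was above 0.05 without array 1, 2 or 3 (0.0580 to 0.225). It was 0.62 without the background offset and 0.18 (unadjusted p = 0.158 by limma) with mean pixel intensities. BCLAF1, a nuclear protein named for its link to BCL2, had 0.19 (SE 0.07), with ratios of 0.15, 0.16, 0.27 and 0.18 on arrays 1 to 4. It was no longer under 0.05 with any array left out (unadjusted p of 0.0635 to 0.148). BCL2L12 had -0.15 (SE 0.07) and the BH3-only gene HRK -0.14 (SE 0.08), which was -0.09 without array 1 or 2.

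On the list of mitochondrial release and apoptosome genes, 8 of 13 measured lay above 0, with a median of 0.14. OPA1, the inner membrane GTPase that shapes cristae, had 0.30 (SE 0.09) and 0.03 on its second probe, and averaging both gave 0.16 (unadjusted p = 0.0516 by limma). Without array 2 or 3 it was 0.24 or 0.23, with an unadjusted p of 0.0781 or 0.0794. VDAC1, a channel of the outer membrane, had 0.21 (SE 0.07), DIABLO, which relieves caspases of their inhibitors, 0.19 (SE 0.08) and the fission GTPase DNM1L 0.17 (SE 0.09). The other DIABLO probes had -0.08 and -0.03, and averaging all 3 gave 0.03 (unadjusted p = 0.743 by limma). DIABLO was 0.13 without array 1. DNM1L was 0.10 with its probes averaged and 0.10 without array 2. The VDAC1 ratios before the dye term were 0.63 and 0.59 on arrays 1 and 3 but -0.27 and -0.11 on arrays 2 and 4. Its unadjusted p was above 0.05 without array 1, 3 or 4 (0.0757 to 0.129). It was also above 0.05 without the background offset (0.102), with median centring (0.0659) and without the dye term (0.271). Of 8 measured caspases and caspase substrates 5 lay above 0. CASP6 had 0.22 (SE 0.09; 0.13 without array 1), PARP1 0.17 (SE 0.07), ROCK1 0.23 (SE 0.15) and LMNA -0.18 (SE 0.10). The unadjusted p of CASP6 was above 0.05 without array 1, 2 or 4 (0.0834 to 0.235), and also without the background offset (0.0776) or the dye term (0.0897). The second PARP1 probe had -0.14, and averaging both gave 0.02. ROCK1 was 0.03, 0.12 or 0.42 with array 2, 3 or 4 left out. Leaving out array 2, 3 or 4 gave LMNA values of -0.28, -0.10 or -0.08.

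The inhibitors of apoptosis and the death receptor pathway gave small values. Of 5 measured inhibitors 4 lay below 0, from FAIM at -0.21 (SE 0.13) to BIRC3 at 0.06, with XIAP, a direct caspase inhibitor, at -0.07 and BIRC6 at -0.07. Leaving out array 1, 2 or 4 gave FAIM values of -0.11, -0.05 or -0.37. The 6 measured death receptor genes lay between -0.12 and 0.05, including FADD at -0.12, CFLAR at -0.07, FAS at 0.04 and TRAF2 at 0.05. No gene of either list was under an unadjusted p of 0.05 by limma.

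Regulators of BCL2 family proteins were split, with 10 above 0 and 12 below. DYNLL1, a dynein light chain known to hold BIM at microtubules, had 0.27 (SE 0.07; unadjusted p = 0.0103 by limma), with the ethanol pool higher on all 4 arrays at 0.06, 0.36, 0.17 and 0.49. MDM2, which restrains p53, a transcriptional activator of BAX, had 0.28 (SE 0.10) and stood at 0.15 without array 1. Its unadjusted p by limma was above 0.05 without array 1, 2 or 4 (0.0863 to 0.173), and also without the background offset (0.0501), with mean pixel intensities (0.0535) or without the dye term (0.0800). The 14-3-3 gene YWHAE had -0.29 (SE 0.14) and TMBIM1 -0.15 (SE 0.07). Leaving out array 1, 2 or 3 gave YWHAE values of -0.11, -0.16 or -0.47. DYNLL1 was at an unadjusted p of 0.0528 without array 3 and 0.0551 without array 4.

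**Figure D4:**
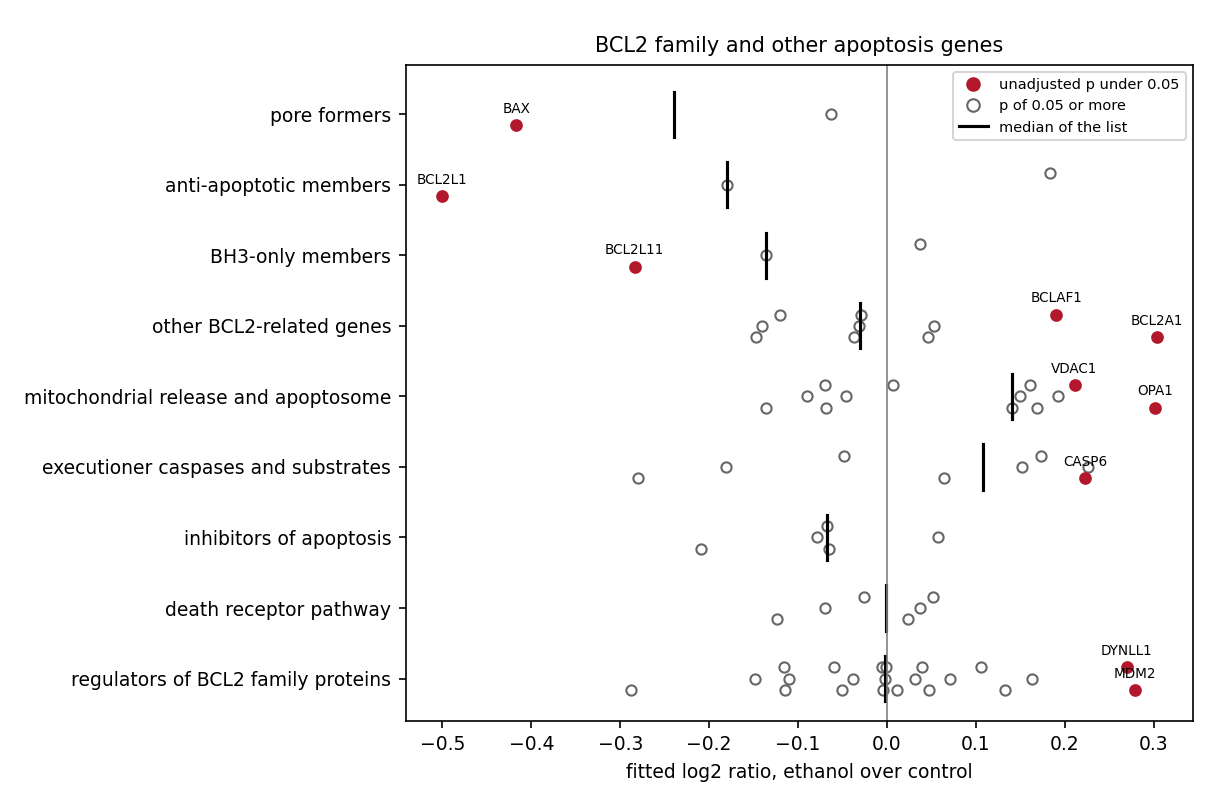
Fitted log2 ratio of ethanol over control (x axis) for the measured genes of the 3 BCL2 family classes and of 6 further apoptosis lists, 1 point for each gene on its brightest probe. Filled red points have an unadjusted p under 0.05 by limma and black bars mark list medians. The red points of the family lie left of 0 and those of the other lists right of 0, among them BCL2A1, whose probe passed the filter through the ethanol pools alone.

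RNA came from whole embryos, so fewer cells of a type and less RNA per cell cannot be told apart. Trophectoderm markers, which mark the outer layer that forms most of a blastocyst, lay below 0 in 6 of 10 genes with a median of -0.11. TEAD4 had -0.29 and GATA2 -0.18, both under an unadjusted p of 0.05 by limma, while CDX2 had 0.08. Of all genes 4.19% were lower at this p and 4.86% higher. The other TEAD4 probes ran from -0.34 to -0.07, and those of CDX2 had -0.07 and -0.00. The summed normalized intensity of the trophectoderm probes overlapped between the groups, at 151456 to 322234 in ethanol and 156513 to 324908 in control pools. The brightest of these genes, KRT8 and KRT18, had dye coefficients of 1.02 and 1.22. The sums of both groups hold this dye effect, so their overlap cannot show whether trophectoderm content differed. Of the inner cell mass, POU5F1 had -0.06 and DPPA5 -0.27 (SE 0.11), and their second probes had -0.23 and -0.40. Of 5 hypoblast markers 4 lay above 0, with a median of 0.09 and COL4A1 at 0.27 (SE 0.12; unadjusted p = 0.0594 by limma). The second COL4A1 probe had 0.02. The part of these lineage markers in the values of BAX and BCL2L1 was not tested.

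BAX and BCL2L1 were under an unadjusted p of 0.05 by limma in each of 13 alternative analyses, with log2 ratios from -0.50 to -0.35 for BAX and from -0.67 to -0.33 for BCL2L1. BCL2L11 was under it in 7 of the 13, and lost it with mean pixel intensities (0.0751), without the dye term (0.0887), with probes averaged and without array 2, 3 or 4. Scaling between arrays (Aquantile) leaves every ratio as it was and is not counted.

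**Figure D5:**
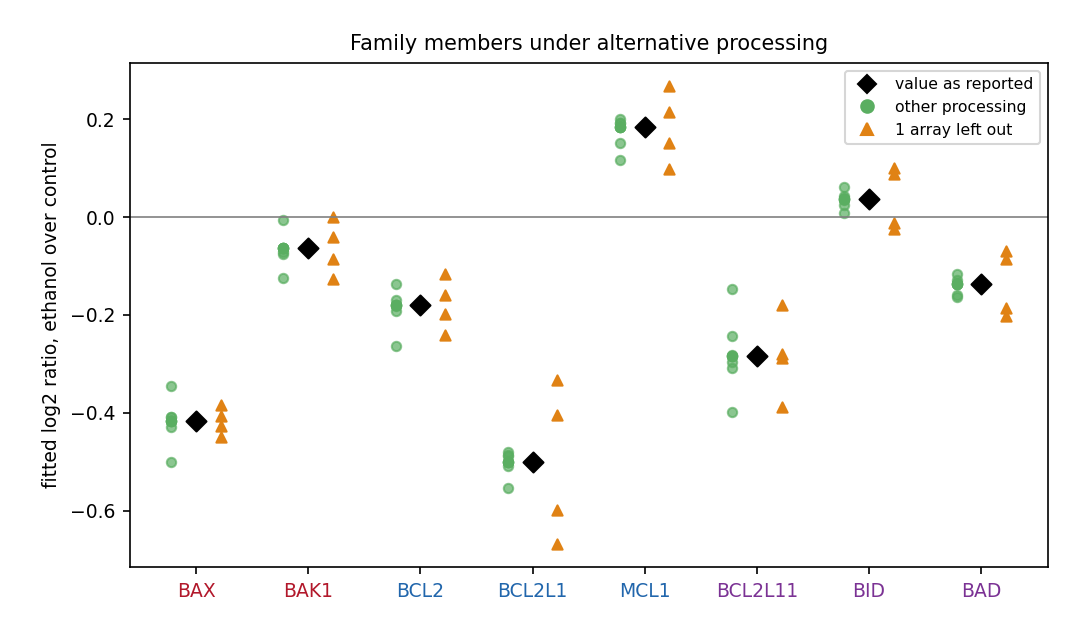
Fitted log2 ratio of ethanol over control (y axis) of the 8 measured members as reported (black diamonds), under 10 other processing settings (green circles, among them the Aquantile scaling, which leaves ratios as they were) and with 1 array left out (orange triangles). BAX and BCL2L1 stay below -0.3 in all of them, BCL2L11 ranges from -0.40 to -0.15, and BID lies on both sides of 0.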

How the data were processed

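The authors' deposited scanner values are, per the file headers, unnormalized intensities of spot and background, as median and mean over pixels in each dye. Amplified RNA was labelled with ULS dyes, per the labels' protocols. Scanner and software are not stated there. The authors' deposited table of log2 ratios, whose normalization is not stated, served as an alternative. Its columns correlated with loess-normalized Cy5 over Cy3 ratios at 0.985 to 0.997, with slopes of 0.930 to 1.02 and medians of -0.0138, -9.35e-05, 0.00378 and 0.00108, which fixes scale and direction. A table with 4 per-array columns was not used.

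In R 4.3.3 with limma 3.58.1, median intensities were corrected with normexp (offset 50) and normalized by loess, with weight 0 for 1426 non-probe spots. Levels were also scaled between arrays (Aquantile). A probe was above background when it exceeded the 95th percentile of 153 negative-control spots, and was kept when this held on 3 or more arrays for ethanol or for control RNA. At most 2 probe spots of an array were saturated. The limma fit had an ethanol and a dye coefficient and 2 residual degrees of freedom, and Benjamini-Hochberg adjustment covered all kept probes. The labels do not say whether pools came from separate cultures, so the spread between these 4 pairs may be technical. Each probe's variance was moderated toward a value estimated from all kept probes (eBayes in limma). SEs, intervals and p-values therefore rest only in part on a probe's own spread between the pairs. The number of arrays limits the precision. Slide and scan date are not stated in the labels or headers, and batches were not tested. In the platform annotation 18121 probes had 1 symbol, 0 had several and 25673 had none, and 1161 with a placeholder were set aside. The kept probe of highest mean intensity represents a gene. Fitted signs differed between probes for 949 of the 2027 genes that had more than 1.

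The members and lists were chosen with earlier results of these data known. The rule for names took all members, the 4 genes of smallest p from each apoptosis list, and the 5 genes most like BAX, BCL2L1 and BCL2L11. Markers were named to check the tissue. The fit was tested on simulated data. Alternatives covered background correction, pixel statistic, normalization, filter, dye term, variance model, the authors' values, averaging probes and leaving out each array.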

Additional observations from a re-analysis of the deposited data

Results flagged for a closer look

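Over 37 probes (the 13 of the family and the brightest probe of each other apoptosis gene named), ratios before the dye term were searched for an array far from the other 3. The dimmest MCL1 probe was marked, with a log2 ratio of -0.31 on array 2, while arrays 1, 3 and 4 ran from 0.02 to 0.08. Chance marks about 1 in 20 such groups, and these ratios still hold each probe's dye effect.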

How the results depend on the processing

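Aquantile scaling leaves ratios as they were and is not counted. The other 13 alternatives kept the family medians within the spread between arrays, at -0.31 to -0.18 for pore formers, -0.26 to -0.12 for anti-apoptotic and -0.20 to -0.07 for BH3-only members. The count of probes past the adjusted threshold was 0 in all of these that test single probes. At an unadjusted p under 0.05 it was 878 without the dye term, against 1887 with it. Of the members, 2 to 4 were under that p. BCL2 passed with mean pixel intensities and without the filter, and MCL1 with mean pixel intensities, median centring or array 3 left out. BCL2L1 minus BAX was -0.17 to 0.074 with 1 array left out, the upper value without array 2. Values near 0 changed sign: with 1 array left out BID ran from -0.024 (without array 2; -0.013 without array 3) to 0.099, BIRC3 from -0.027 (without array 1) to 0.142, and TRAF2 from -0.0078 (without array 4) to 0.112. BIRC3 was -0.013 with probes averaged, and FAS was -0.014 with mean pixel intensities and -0.011 with median centring. The cause was not tested. BCLAF1 was above an unadjusted p of 0.05 without the background offset (0.0539), with median centring (0.112), without the dye term (0.0729) and with probes averaged (0.0712). Low signal over background limits BAK1, BCL2 and both BCL2L11 probes. Each array's ratio is itself a difference within a pair of pools, so the fits are paired by array and no further block was added.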
